A study of Mus musculus with 3 samples.

Results

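The genes described here are 59 genes of the Wnt pathway on a mouse expression array: Wnt ligands, R-spondins, receptors, secreted antagonists, cellular inhibitors, and transcription factors or target genes. They were taken by gene name from the array annotation, as every Wnt, Fzd, Sfrp, Dkk and Rspo gene followed by a number plus 18 further named genes. The array names 30458 genes in all, and these 59 are read by 75 probes. A gene was tested where 1 of its probes was well above background in the mutant or the wild type channel of every array, which held for 41 of the 59 genes and for 15426 genes in all. The other 18 were too dim.

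The samples were mouse embryoid bodies, free-floating clusters in which embryonic stem cells differentiate, collected on day 10 of culture in the absence of LIF, the cytokine that maintains self-renewal. One genotype was wild type, and the other carried Dido3ΔCT, a form of Dido3 that lacks its C-terminal part. Dido3 is a protein product of the Dido1 locus. Each of 3 two-colour arrays on 1 slide compared 1 mutant with 1 wild type sample, so there were 3 samples of each genotype. On replicates 1 and 3 the mutant was labelled with Cy3, and on replicate 2 with Cy5. The labels call the samples biological replicates and do not say whether several lines or repeated cultures of a single line were used, so p-values measure only the spread between these samples. The comparison asks how the transcripts of the pathway differ between genotypes at this stage.

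Wnt proteins are secreted lipid-modified ligands that bind Frizzled receptors and the co-receptors Lrp5 and Lrp6. Binding stops the Axin complex from degrading beta-catenin, which then acts with TCF and LEF proteins to activate target genes such as Axin2, Sp5 and Lgr5. R-spondins raise receptor levels by keeping the ubiquitin ligases Rnf43 and Znrf3 away from Frizzled, while Dkk, Sfrp and Frzb proteins are secreted inhibitors. In the embryo and in embryoid bodies the pathway takes part in forming the primitive streak and patterning the neural plate, and in stem cells it takes part in self-renewal.

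More of the tested Wnt pathway genes had lower than higher signal in the mutant, but none passed the test. The mean log2 ratio of mutant over wild type was below 0 for 30 of the 41 tested genes and above 0 for 11, against 7336 below and 8090 above among all genes tested. The median of these mean ratios was −0.55 for the 41 genes and 0.035 for all 15426 genes. On the single arrays the median of the 41 genes was −0.82, −0.19 and −0.87 on replicates 1, 2 and 3, and that of all genes was 0.015, −0.029 and 0.037. A filter that a gene passes through the genotype where it is bright favours differing genes, so these values describe the genes that passed. Of the 41 genes, 9 passed through wild type alone, 3 through the mutant alone and 29 through both. Over all 59 genes, with no filter, the median was −0.31.

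**Figure D1:**
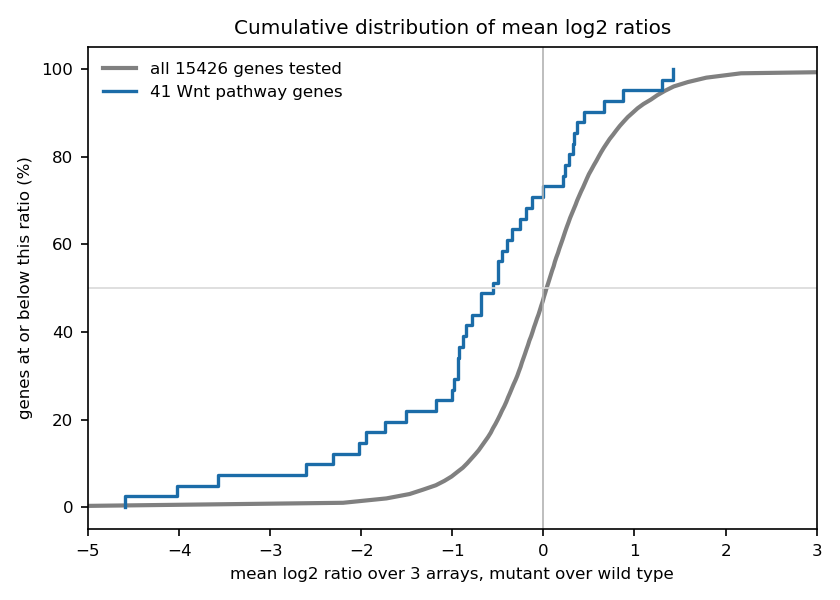
Cumulative percent of genes (vertical axis) at or below each mean log2 ratio of mutant over wild type (horizontal axis), for the 41 tested Wnt pathway genes and all 15426 genes tested. The curve of the Wnt pathway genes crosses 50% at −0.55 and that of all genes at 0.035, and the former is left of the latter over most of its length.

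In limma's moderated test with Benjamini-Hochberg adjustment over all genes, 0 of the 41 genes were higher and 0 lower at an adjusted p under 0.05. The share of all tested genes called was 0.207% higher and 0.0908% lower, so less than 1 call in 41 genes would match the background. At an adjusted p under 0.1, a looser threshold, 0 were higher, with a background of 4.22%. In the other direction 5 were lower at that threshold, Frzb, Fzd1, Nkd1, Rspo2 and Sp8, which is 12.2% of the 41 genes with a background of 3.81%. At an unadjusted p under 0.05 there were 3 higher, with a background of 11.4%, and 17 lower, with a background of 11.3%. The 5 and the 17 lower genes both include Frzb and Rspo2, which passed the filter through wild type alone. The 17 also include Fzd4, Wnt1, Wnt6, Wnt8b and Wnt9a, which passed in the same way. A fit restricted to genes well above background in both genotypes held 29 of the pathway genes. In it 2 were higher and 10 lower at an unadjusted p under 0.05, where 2628 of 13151 genes were in either direction.

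Direction was also counted on the single arrays. There were 18 genes (43.9%) below 0 on all 3 arrays, against 22.7% of all genes, and 4 (9.76%) above 0 on all 3, against 21.7%. Within the 29 genes that passed in both genotypes, 11 were below and 2 above 0 on all arrays, and of 13136 genes that passed in both, 20.8% were below and 21% above. With a mean log2 ratio of −1 or lower added to the rule, 11 genes (26.8%) remained, against 6.72% of all genes. With a mean of at least 1, 2 genes (4.88%) remained, Sfrp5 and Tcf7, against 7.01%. The mutant signals all lay below the wild type signals for 17 genes (41.5%), against 10.3% of all genes, and all above for 3 genes (7.32%), against 11.0%. The counts by size and by overlap were not split by filter. They include genes that passed through wild type alone, among them Frzb, Rspo2, Wnt1 and Wnt8b, so they describe the genes that passed.

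Replicate 2, the array with the dyes exchanged, stood apart. Over the 41 genes the log2 ratios of replicates 1 and 3 correlated with r = 0.933, and replicate 2 correlated with them at 0.437 and 0.427. Over all genes these correlations were 0.879, 0.151 and 0.18. They are given as descriptions, since genes of 1 array share its samples and dyes. The sign on replicate 2 was opposite to that on both other arrays for 15 of the 41 genes (36.6%), close to the 39.9% among all genes.

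Without replicate 2, 5 genes were called higher (12.2%, background 26.0%) and 23 lower (56.1%, background 21.9%) at an adjusted p under 0.05. That fit has 1 residual degree of freedom, and dye and genotype cannot be told apart there. The higher genes were Axin2, Nkd2, Sfrp4, Sfrp5 and Tcf7. Among the lower genes were 5 that turned on replicate 2 and whose fold moved by over 1.5 times without it. These were Rspo1 (3.04-fold), Sfrp1 (2.26-fold), Sfrp2 (3.18-fold), Sp5 (2.73-fold) and Tnfrsf19 (3.32-fold). When a term for dye was added with all 3 arrays, 3 genes were called higher (7.32%, background 16.2%) and 18 lower (43.9%, background 15.3%). In that fit the residual error comes from replicates 1 and 3 alone. The 3 higher genes were Sfrp4, Sfrp5 and Tcf7. Leaving out replicate 1 or replicate 3 instead, with no dye term, gave 0 calls among the 41 genes in either direction. Over all genes these 2 fits gave 3 higher and 2 lower without replicate 1, and 5 and 4 without replicate 3.

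**Figure D2:**
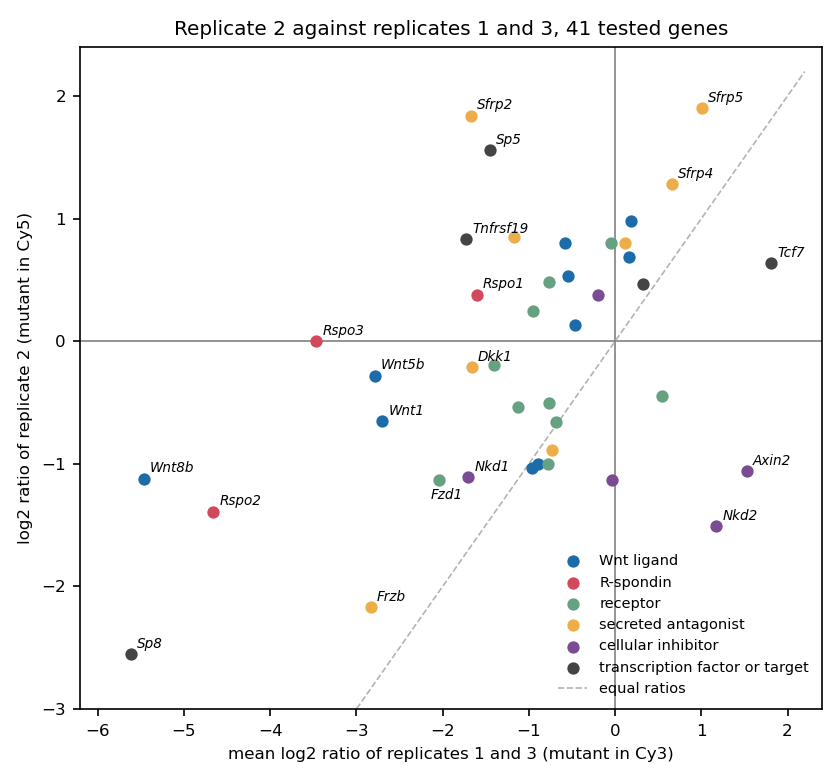
Log2 ratio of mutant over wild type on replicate 2 (vertical axis) against the mean of replicates 1 and 3 (horizontal axis), 1 point per tested gene, coloured by role. Sp8, Frzb, Rspo2 and Wnt8b lie in the lower left, Sfrp2 and Sp5 in the upper left and Axin2 and Nkd2 in the lower right, where the arrays have opposite signs.

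The check of the targeted locus was not settled by this design. Dido1 is read by 4 probes, with mean log2 ratios of 1.74, −1.92, 1.12 and 1.36, each with the same sign on all 3 arrays. Which of these probes lie in the part removed from Dido3 is not given in the sources used here, so they neither bear out nor contradict the labels. On single arrays 46.5% to 62.5% of probes were detected well above background with mutant RNA and 48.5% to 74.4% with wild type RNA. In bulk RNA, fewer cells of a type and less RNA per cell cannot be told apart, and marker genes of several cell types differed between the genotypes.

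The 8 markers of undifferentiated stem cells had a median log2 ratio of 2.50, with 2 called higher, and a mean log2 signal of 13.03 to 14.04 in mutant and 11.18 to 11.76 in wild type samples. The 9 markers of parietal endoderm, the extraembryonic layer that makes basement membrane, were all below 0 on all 3 arrays, with a median of −3.20. Of these 9, 0 were called in either direction. Their mean signal was 10.09, 12.67 and 10.25 in the mutant and 14.43, 14.69 and 13.70 in wild type on replicates 1, 2 and 3. The 9 markers of visceral endoderm had a median of −1.93, with 1 called lower and 8 below 0 on all arrays. Their mean signal was 9.69, 12.53 and 10.12 in the mutant and 11.64, 13.81 and 11.93 in wild type. For both endoderm lists, replicate 2 had the highest mean signal in each genotype. These lists stand beside every result that follows, and their part in the results on Wnt pathway genes was not tested.

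Of the 8 marker lists, that of neural progenitors differed most between replicates of wild type. Of 8 listed, 6 were tested, with Pax6 and Neurog2 left out as dim. Their median log2 ratio was −4.21, −1.39 and −4.79 on replicates 1, 2 and 3, with 4 of 6 below 0 on all arrays and 0 called. Their mean log2 signal in wild type was 11.45, 8.80 and 12.94 on replicates 1, 2 and 3, and in the mutant it was 7.89, 7.93 and 8.72. Wild type of replicate 2 was thus close to the mutant samples for these markers. The markers of mesoderm and mesenchyme had a median of −0.33 (8 tested, 0 called) and those of blood and endothelium −0.61 (7 tested, 1 called lower). Those of cardiac muscle had a median of −1.69 (7 tested, 1 called lower) and those of neural crest −1.70 (4 tested, 0 called).

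Signals given for single genes from here on are log2 channel intensities scaled between arrays. They compare samples for 1 probe, and signals of different probes are not set against each other. The dyes were not exchanged equally between genotypes, so signals and ratios are open to dye bias. Errors are standard errors over 3 arrays from the fit over all genes.

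Of 6 members whose promoters hold the letters bound by TCF and LEF proteins, the partners of beta-catenin, 4 are shown. Sp8, Wnt5b and Dkk1 had lower signal in the mutant on all arrays, and Sp5 turned between arrays. The letters searched were CTTTGAT and CTTTGAA on both strands, in RefSeq windows of the mouse build GRCm38.p6 from 250 bases before to 50 bases after each gene's start. Each stretch is the 150 bases before the start, 5′ to 3′ on the gene's strand, with the match in capitals. In Sp8 the match lies on the opposite strand and reads as its reverse complement. Sp8 is at chr12:118847083-118847232 on the plus strand, Wnt5b at chr6:119449387-119449536 on the minus strand, Dkk1 at chr19:30549497-30549646 on the minus strand and Sp5 at chr2:70474773-70474922 on the plus strand.
Sp8: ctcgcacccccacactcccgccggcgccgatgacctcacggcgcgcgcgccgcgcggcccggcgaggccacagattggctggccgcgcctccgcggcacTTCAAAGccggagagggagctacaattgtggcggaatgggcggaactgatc
Wnt5b: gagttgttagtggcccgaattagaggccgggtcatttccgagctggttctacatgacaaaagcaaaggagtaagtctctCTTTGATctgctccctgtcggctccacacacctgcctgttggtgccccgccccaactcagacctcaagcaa
Dkk1: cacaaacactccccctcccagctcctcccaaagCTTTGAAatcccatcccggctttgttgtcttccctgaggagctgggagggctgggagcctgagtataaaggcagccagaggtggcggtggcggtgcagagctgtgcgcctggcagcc
Sp5: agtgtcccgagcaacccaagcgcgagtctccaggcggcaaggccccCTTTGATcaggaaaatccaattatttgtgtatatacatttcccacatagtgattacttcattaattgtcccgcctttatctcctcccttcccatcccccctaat

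Counted from the gene's start, the match begins at base −51 in Sp8, −71 in Wnt5b, −117 in Dkk1 and −104 in Sp5. Sp8 and Wnt5b each have 3 windows in the table, and 1 of the 3 holds the match. Tnfrsf19 and Wnt11, which are not shown, hold a match too, at bases −202 and −51, and the ratios of both turned between arrays. The table matched 39 member genes with 50 windows, of which 6 windows (12.0%) hold a match, against 2842 of 32851 windows of all genes (8.65%). By gene the shares were 15.4% and 9.88%. A match is a run of letters, not a measured binding site, and the ratios of the 6 genes ran from −4.59 for Sp8 to −0.26 for Wnt11.

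The 19 Wnt ligand genes were read by 23 probes, and 10 of them were tested. Of these, 8 had a mean log2 ratio below 0 and 2 above 0. On all 3 arrays 5 were below 0 and 1, Wnt8a, above 0, where 22.7% and 21.7% of all genes were. Of the 5, Wnt1, Wnt6, Wnt8b and Wnt9a passed the filter through wild type alone, and Wnt8a passed through the mutant alone. These counts therefore describe the genes that passed. The median over the 10 was −0.60, and by array it was −0.79, −0.072 and −0.64. Wnt8b, Wnt1 and Wnt5b were lowest in the mutant.

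Wnt8b, a ligand of the developing forebrain, had the lowest ratio of the ligands. Its log2 signal in wild type was 13.49, 7.58 and 11.42 on replicates 1, 2 and 3, and in the mutant it was 6.77, 6.46 and 7.21. The groups did not overlap, but wild type of replicate 2 stood near the mutant samples, and the mutant probe was well above background on 1 of 3 arrays. The log2 ratio was −4.02 ± 1.05 (SE, n = 3 arrays; adjusted p = 0.117, limma), with −6.72, −1.12 and −4.21 on the arrays. The probe lies at chr19:44588615-44588674 of build mm9. Without replicate 2 the log2 ratio was −5.47 (adjusted p = 0.00173, limma). It was −2.66 without replicate 1 (adjusted p = 0.281, limma) and −3.92 without replicate 3 (adjusted p = 0.236, limma). A second, dimmer Wnt8b probe, which was well above background on 2 wild type arrays and no mutant array and was not tested, gave −1.03, −0.012 and −0.61.

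Wnt1, a ligand of the midbrain and dorsal neural tube, had a log2 signal of 10.26, 8.40 and 9.62 in wild type and 7.08, 7.75 and 7.40 in the mutant. The groups did not overlap, and wild type was again lowest on replicate 2. Its mean log2 ratio was −2.02 ± 0.52 (adjusted p = 0.114, limma), or 4.06-fold lower, with the mutant well above background on 2 of 3 arrays. Without replicate 2 it was 6.52-fold lower (adjusted p = 0.00164, limma). A second Wnt1 probe stayed near background on every array.

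Wnt5b, a ligand of mesenchyme and the primitive streak, read 11.20, 8.56 and 10.51 in wild type and 8.11, 8.28 and 8.02 in the mutant. The mutant samples lay within a narrow range, and wild type of replicate 2 stood just above them. Its mean log2 ratio was −1.95 ± 0.58 (adjusted p = 0.147, limma). It was −3.08, −0.28 and −2.49 on the arrays, so most of the mean came from replicates 1 and 3. Without replicate 2 it was 6.90-fold lower, against 3.87-fold with it (adjusted p = 0.00106, limma).

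Wnt9a and Wnt6 had smaller but more even ratios. Wnt9a gave −1.24, −1.03 and −0.69, with a mean of −0.98 (adjusted p = 0.113, limma). Wnt6 gave −0.51, −1 and −1.28, with a mean of −0.93 (adjusted p = 0.140, limma). Wnt6 was well above background with wild type RNA on all 3 arrays and with mutant RNA on none, and a floored estimate put it 1.75-fold lower in the mutant. Such an estimate sets the wild type mean against the lowest signal that counted as well above background, or the mutant's own where that was higher. It is a mean over arrays without an error, and single arrays can show a smaller difference.

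Wnt3, a ligand required for gastrulation, had signals of 7.84, 8.27 and 8.26 in wild type and 7.69, 9.25 and 8.76 in the mutant. The groups overlapped, with a log2 ratio of 0.45 ± 0.31 (adjusted p = 0.446, limma). Wnt11, a ligand of cell movement and heart formation, read 8.36, 8.11 and 8.09 in wild type and 7.65, 8.24 and 7.88 in the mutant. It overlapped as well, with a log2 ratio of −0.26 ± 0.28 (adjusted p = 0.612, limma). Wnt3a, a ligand of the primitive streak and tail bud, reached well above background on no array in either genotype, and Wnt5a was on 2 wild type arrays and no mutant array. Both were left untested, with mean log2 ratios of 0.10 and 0.20. The other tested ligands were Wnt4, Wnt7b and Wnt8a, with mean ratios of −0.19, −0.12 and 0.33. The second Wnt4 probe, which passed the filter too, gave −0.36, −0.58 and −0.48.

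Several Wnt genes are neighbours in the genome, and 4 such pairs were measured. The probes of Wnt6 and Wnt10a lie 19.2 kb apart on chromosome 1 of mm9, and their mean log2 ratios were −0.93 and −0.26. Those of Wnt1 and Wnt10b lie 22 kb apart on chromosome 15, with −2.02 and 0.0058. The other pairs, on chromosome 11, were Wnt9a and Wnt3a, 85.4 kb apart, with −0.98 and 0.10, and Wnt3 and Wnt9b, 90.2 kb apart, with 0.45 and −0.21. In each pair 1 gene was tested and its neighbour, Wnt10a, Wnt10b, Wnt3a or Wnt9b, was too dim to be tested, so the difference within a pair was not tested.

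Of the 4 R-spondin genes, 3 were tested, and all 3 had a mean ratio below 0. Rspo2 and Rspo3 were below 0 on every array, as were 22.7% of all genes. Rspo2 passed the filter through wild type alone, and Rspo3 was level on replicate 2. The medians of the 3 genes on the arrays were −4.08, −0.00012 and −2.85. Rspo4 was too dim to be tested.

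Rspo2, a ligand of Lgr receptors that is made in limb, lung and neural tissue, read 11.47, 7.96 and 11 in wild type and 6.24, 6.57 and 6.91 in the mutant. No mutant array was well above background and all 3 wild type arrays were, and the floored estimate, as for Wnt6, was 11.2-fold lower in the mutant. The log2 ratio from the fit was −3.57 ± 0.75 (adjusted p = 0.0834, limma), and over the alternative ways of processing it ran from −6.38 to −1.88. Replicate 2 gave −1.39 against −5.23 and −4.09, and its wild type sample was the lowest of the wild type samples. Without replicate 2 the fold from the fit was 25.3 (adjusted p = 8e-04, limma). The probe lies at chr15:42852727-42852786 of mm9.

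Rspo3, which acts in vessel, placenta and neural development, read 12.88, 10.24 and 12.70 in wild type and 8.80, 10.24 and 9.85 in the mutant. On replicates 1 and 3 the mutant was far below wild type, with ratios of −4.08 and −2.85. On replicate 2 the genotypes were level, with a log2 ratio of −0.00012, so its count among genes below 0 on all arrays rests on a difference of no size. The mean was −2.31 ± 0.80 (adjusted p = 0.182, limma), and without replicate 2 it was −3.47 (adjusted p = 0.00137, limma). Rspo1 turned between arrays, with log2 ratios of −1.83, 0.38 and −1.38. It read 12.21, 8.28 and 10.78 in wild type and 10.38, 8.66 and 9.40 in the mutant, so wild type of replicate 2 was the lowest of the 6 samples.

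**Figure D3:**
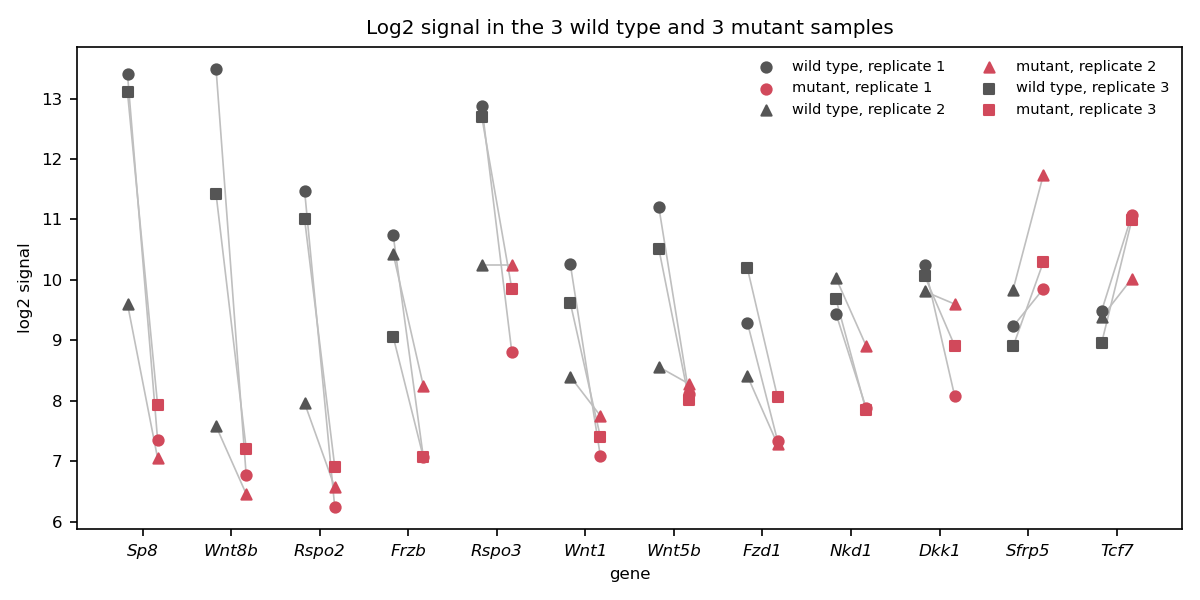
Log2 signal (vertical axis) of 12 Wnt pathway genes in the 3 wild type and 3 mutant samples, with symbols for replicates and lines joining the samples of 1 array. For Sp8, Wnt8b, Rspo2, Rspo3 and Wnt5b, the wild type sample of replicate 2 lies well below the other wild type samples, while for Nkd1 and Dkk1 the wild type samples lie close together.

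There were 14 receptor genes with 19 probes, and 10 were tested, with 8 mean ratios below 0 and 6 genes below 0 on all arrays. None was above 0 on all arrays. Of all genes, 22.7% were below and 21.7% above 0 on all arrays. The medians by array were −0.79, −0.47 and −0.82, so replicate 2 lay nearer to the other arrays than in the medians of ligands and R-spondins. That difference between roles was not tested.

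Fzd1, a Frizzled receptor, read 9.29, 8.41 and 10.19 in wild type and 7.34, 7.28 and 8.06 in the mutant. The groups did not overlap, and the log2 ratios were −1.96, −1.13 and −2.13. The mean was −1.74 ± 0.30, or 3.34-fold lower (adjusted p = 0.0647, limma). It was the largest difference among the Frizzled genes tested. The probe lies at chr5:4754003-4754062 of mm9.

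Of 10 Frizzled genes, 7 were tested and 4 were below 0 on all arrays, Fzd1, Fzd2, Fzd3 and Fzd4, where 22.7% of all genes were. Fzd4 passed the filter through wild type alone. Fzd3, a receptor in axon guidance, read 9.33, 9.77 and 9.90 in wild type and 8.51, 8.77 and 9.17 in the mutant. It was even across arrays, with −0.82, −1 and −0.73 and a mean of −0.85 (adjusted p = 0.128, limma). Fzd2 had a mean of −0.94 (adjusted p = 0.145, limma) and Fzd4, a receptor in vessel formation, −0.68 (adjusted p = 0.187, limma). Fzd7, the receptor known for its high expression in stem cells, had signals that overlapped and a mean of 0.22. Fzd9 and Fzd10 turned on replicate 2, with means of −0.35 and −0.55. Of the untested receptors, Fzd8 had the lowest mean ratio, −1.05, with −1.44, −0.069 and −1.64.

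Neither co-receptor passed the test. Lrp6 gave −0.24, −0.66 and −1.12 as log2 ratios, with a mean of −0.68 (adjusted p = 0.240, limma). Lrp5 had a mean of 0.24. Lgr5, an R-spondin receptor and a known target gene of the pathway, had signals of 9.59, 8.31 and 9.57 in wild type and 8.33, 8.12 and 8.02 in the mutant. The groups overlapped by 1 sample pair, since wild type of replicate 2 was just below the mutant of replicate 1. Its log2 ratio was −1 ± 0.35 (adjusted p = 0.184, limma), and its second probe stayed near background on every array.

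**Figure D4:**
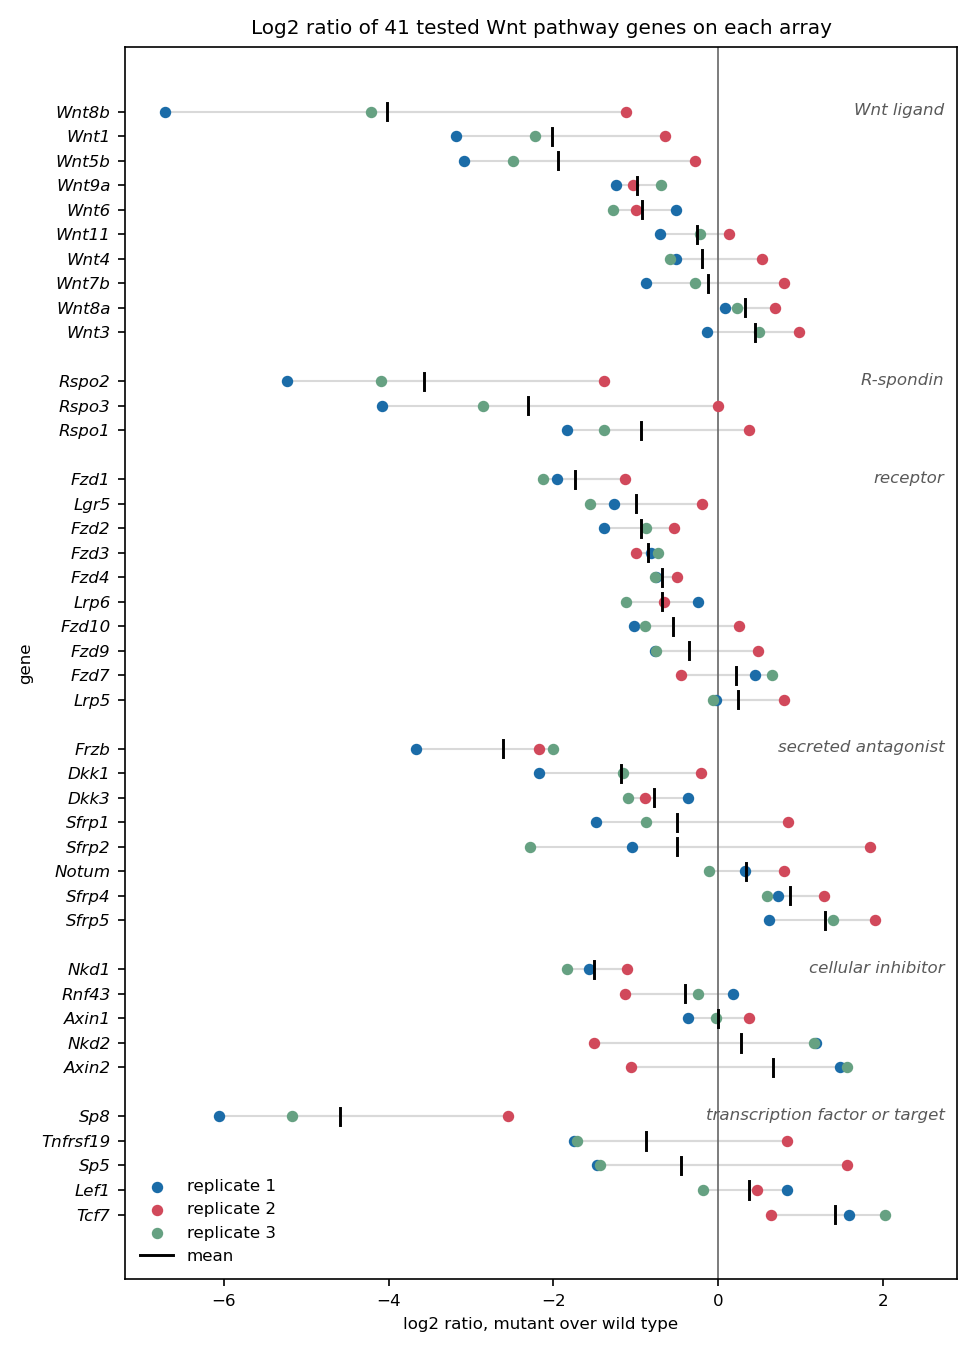
Log2 ratio of mutant over wild type (horizontal axis) for each of the 41 tested genes (vertical axis), grouped by role, with 1 point per array and a bar at the mean of 3 arrays. Sp8, Wnt8b and Rspo2 reach the lowest values, replicate 2 is nearest to 0 for most of the genes that are below 0 on all arrays, and Sfrp4, Sfrp5, Tcf7 and Wnt8a are above 0 on all arrays.

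Of 11 secreted antagonists, 8 were tested, 5 with a mean ratio below 0 and 3 above. This group held genes in both directions on all arrays, with 3 below 0, Frzb, Dkk1 and Dkk3, and 2 above 0, Sfrp4 and Sfrp5. Of all genes, 22.7% were below and 21.7% above 0 on all arrays. Frzb passed the filter through wild type alone and Sfrp4 through the mutant alone, so these counts describe the genes that passed. The medians of the 8 antagonists by array were −0.70, 0.82 and −0.98, so replicate 2 had the opposite sign.

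Frzb, a Frizzled-related protein that binds Wnt ligands, was lower in the mutant on all arrays. It read 10.74, 10.43 and 9.06 in wild type and 7.07, 8.25 and 7.07 in the mutant, and the groups did not overlap. The log2 ratios were −3.67, −2.17 and −2. The mean was −2.61 ± 0.41, or 6.12-fold lower (adjusted p = 0.0580, limma), with the mutant well above background on 2 of 3 arrays. Replicate 2 was within the range of the other arrays for this gene. The probe lies at chr2:80252582-80252641 of mm9.

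Dkk1, an inhibitor that binds Lrp5 and Lrp6 and is needed for head formation, read 10.25, 9.81 and 10.07 in wild type. In the mutant it read 8.08, 9.60 and 8.91, so the groups did not overlap but came within 0.21 of each other on replicate 2. The log2 ratio was −1.18 ± 0.43 (adjusted p = 0.194, limma). Dkk3 had ratios of −0.36, −0.89 and −1.10, with a mean of −0.78 (adjusted p = 0.182, limma).

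Sfrp5, a secreted Frizzled-related protein of foregut and visceral endoderm, was higher in the mutant on each array. It read 9.23, 9.84 and 8.90 in wild type and 9.85, 11.73 and 10.29 in the mutant. The mutant samples lay above the wild type samples, by 0.01 at the closest. The log2 ratio was 1.30 ± 0.33, or 2.47-fold (adjusted p = 0.111, limma). The markers of visceral endoderm had a median of −1.93 in the same samples. Their mean signal and that of Sfrp5 were both highest on replicate 2 in each genotype. Sfrp4 read 7.74, 7.05 and 7.40 in wild type and 8.47, 8.33 and 8 in the mutant, without overlap. Its ratios were 0.73, 1.28 and 0.59, with a mean of 0.87 (adjusted p = 0.151, limma).

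Sfrp1 and Sfrp2, which are expressed in the early neural plate, turned between arrays. Sfrp1 read 10.68, 7.88 and 9.35 in wild type and 9.20, 8.73 and 8.48 in the mutant, with a mean log2 ratio of −0.50 ± 0.50 (adjusted p = 0.589, limma). Sfrp2 read 11.28, 7.96 and 11.39 in wild type and 10.23, 9.81 and 9.11 in the mutant. Its ratios were −1.05, 1.84 and −2.29. For both genes the wild type sample of replicate 2 was the lowest of all 6 samples. Notum, an enzyme that removes the lipid of Wnt proteins, had a mean of 0.34.

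Of 6 inhibitors that act in the receiving cell, read by 9 probes, 5 were tested. Their median was −0.0025 and 1, Nkd1, was below 0 on all arrays, where 22.7% of all genes were. Nkd1, an inhibitor of Dishevelled and a target of the pathway, read 9.44, 10.03 and 9.68 in wild type and 7.88, 8.91 and 7.84 in the mutant. The groups did not overlap, and the ratios were even at −1.57, −1.11 and −1.84. The mean was −1.51 ± 0.27, or 2.84-fold lower (adjusted p = 0.0676, limma). A second, dimmer Nkd1 probe, which was not tested, gave −1.14, 0.068 and −1.09.

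Axin2, a scaffold of the beta-catenin destruction complex whose transcript is used as a readout of the pathway, turned between arrays. It read 6.88, 7.38 and 7.13 in wild type and 8.36, 6.31 and 8.69 in the mutant. The mutant was above wild type on replicates 1 and 3, with ratios of 1.48 and 1.57, and below on replicate 2, with −1.06. The mean was 0.66 ± 0.59 (adjusted p = 0.550, limma), and without replicate 2 it was 1.52 (adjusted p = 0.0024, limma). With a dye term it was 0.23 (adjusted p = 0.299, limma). A second Axin2 probe stayed near background on every array.

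Nkd2, the paralog of Nkd1, had the same order of signs as Axin2 at its tested probe. It read 10.48, 12.35 and 10.80 in wild type and 11.67, 10.84 and 11.96 in the mutant, with ratios of 1.19, −1.51 and 1.16. Its mean was 0.28 (adjusted p = 0.813, limma). Without replicate 2 its log2 ratio was 1.17 (adjusted p = 0.00498, limma), and with a dye term it was −0.17 (adjusted p = 0.445, limma), with the sign turned. A second Nkd2 probe, which was well above background on 2 arrays in each genotype and was not tested, gave 0.71, 0.48 and 0.25 and so did not turn on replicate 2. Rnf43, a ubiquitin ligase that removes Frizzled receptors, had a mean of −0.40, and Axin1, the paralog of Axin2, −0.0025.

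All 5 transcription factors or targets were tested, with 1 below 0 on all arrays, Sp8, and 1 above, Tcf7. Of all genes, 22.7% were below and 21.7% above 0 on all arrays. Sp8, a zinc finger factor of forebrain, limb and tail bud, had the lowest ratio of the 41 genes. It read 13.40, 9.60 and 13.10 in wild type and 7.35, 7.05 and 7.93 in the mutant, so the groups were far apart. The log2 ratio was −4.59 ± 0.70, or 24.1-fold lower (adjusted p = 0.0580, limma), with −6.06, −2.55 and −5.17 on the arrays. The probe lies at chr12:120090880-120090939 of mm9. Without replicate 2 it was 48.9-fold lower (adjusted p = 0.000514, limma). The log2 ratio was −3.86 without replicate 1 (adjusted p = 0.141, limma) and −4.3 without replicate 3 (adjusted p = 0.0961, limma). A second, dim Sp8 probe, which was well above background on 1 wild type array and no mutant array, had a mean ratio of −0.057.

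Sp5, a close relative of Sp8 and a direct target of beta-catenin, turned between arrays. It read 10.46, 9.35 and 10.86 in wild type and 8.99, 10.91 and 9.43 in the mutant. The ratios were −1.47, 1.56 and −1.43, and the mean was −0.45 ± 0.67 (adjusted p = 0.723, limma). With a dye term the sign changed, to 0.054. Tnfrsf19, a membrane protein and target of the pathway, showed the same order with −1.75, 0.83 and −1.71. It read 11.21, 8.66 and 11.66 in wild type and 9.46, 9.48 and 9.94 in the mutant, so the wild type sample of replicate 2 lay below every mutant sample.

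The pair of TCF/LEF factors did not pass the test. Tcf7 read 9.49, 9.38 and 8.96 in wild type and 11.07, 10.02 and 10.99 in the mutant, without overlap. Its log2 ratio was 1.42 ± 0.35, or 2.68-fold (adjusted p = 0.106, limma), with 1.59, 0.64 and 2.03 on the arrays. Lef1 read 8.03, 7.30 and 7.06 in wild type and 8.86, 7.77 and 6.88 in the mutant, which overlapped. Its log2 ratio was 0.37 ± 0.30 (adjusted p = 0.505, limma).

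The target genes of the pathway did not share a direction. On replicates 1 and 3 Axin2 was higher in the mutant, and Sp5, Tnfrsf19 and Lgr5 were lower. On replicate 2 Axin2 was lower and Sp5 and Tnfrsf19 were higher. Nkd1 and Lgr5 were lower on all 3 arrays, with a log2 ratio of only −0.19 for Lgr5 on replicate 2. Beside these, the wild type sample of replicate 2 had the lowest mean of neural progenitor markers among the 3 wild type samples. Both samples of replicate 2 had the highest means of parietal and visceral endoderm markers within their genotype. The part of these marker differences in the target gene ratios was not tested.

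Further genes of the pathway were described from lists that hold none of the members above by the same name. Of 50 intracellular and membrane components, 37 were tested, with 0 called in either direction by limma at an adjusted p under 0.05. Their median log2 ratio was −0.18, with 3 above and 11 below 0 on all arrays, where 21.7% and 22.7% of all genes were. At an adjusted p under 0.1, 2 of the 37 were lower, near the 3.81% of all genes. These were Wls, the carrier that brings Wnt proteins to the cell surface, at −1.74 ± 0.29 (adjusted p = 0.0625, limma), and Prickle1, of the planar polarity branch, at −1.59 ± 0.24 (adjusted p = 0.058, limma). Wls was −2.11, −1.93 and −1.19 on the arrays, so replicate 2 lay between the other values. Porcn, the enzyme that attaches the lipid to Wnt proteins, had ratios of 3.51, −2.11 and 2.39 and turned on replicate 2. Ctnnb1, the gene of beta-catenin, had ratios of 0.88, −1.21 and 1.

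Of 21 further genes known to respond to Wnt signalling, 20 were on the array under the listed name and 17 were tested, with 0 called in either direction by limma at an adjusted p under 0.05. Their median was −0.047, with 6 above and 4 below 0 on all arrays, where 21.7% and 22.7% of all genes were. At an adjusted p under 0.1, 3 were lower and 2 higher, beside 3.81% and 4.22% of all genes. Sox9, a factor of cartilage, neural crest and gut, was at −1.87 (adjusted p = 0.0598, limma). Id2, an inhibitor of basic helix-loop-helix factors, was at −1.75 (adjusted p = 0.0543, limma), and Cdx2, a factor of trophoblast and posterior tissues, at −1.71 (adjusted p = 0.063, limma). The higher ones were Ascl2, a factor of trophoblast and intestinal stem cells, at 1.80 ± 0.37 (adjusted p = 0.0787, limma), and Nr5a2, a nuclear receptor that is expressed in stem cells, at 1.47 ± 0.26 (adjusted p = 0.0679, limma). T, the primitive streak factor, had a mean log2 ratio of −0.047 and Myc 0.56.

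Probes of the same gene did not always give the same direction. Of the 59 genes, 16 had more than 1 probe, and the means of their probes had the same sign for 10. The 6 genes with probes of opposite sign were Axin2, Fzd5, Fzd7, Lgr5, Tnfrsf19 and Wnt16. For 1 gene, Wnt4, more than 1 probe passed the filter. The 18 untested genes had mean ratios from −1.05 to 0.53, and 2 of their 20 probes were well above background nowhere.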

How the data were processed

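Arrays with 6 samples in pairs were analysed. The deposited files are scanner output of Agilent Feature Extraction 10.7.3.1, per the file headers, with the mean and background intensity of both dyes per spot, log10 ratios, and other columns of flags for spots well above background, saturated or outlying. Positions of probes refer to mm9, as those headers state. The value table deposited by the authors holds log2 ratios of mutant over wild type, and the submitters' processing notes name limma. Its columns labelled 1 and 3 each correlated more closely with the scanner file of the other (0.915 against 0.771, and 0.983 against 0.842), which leaves mean ratios unchanged. Its column medians are −0.04, 0.01 and −0.01.

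Analysis used R 4.3.3 and limma 3.58.1, with figures in matplotlib 3.10.9. Mean signals were corrected with normexp (offset 50) and normalized by loess within arrays, where 1377 control spots had weight 0. There were 7 spots of replicate 3 with a background above 10 times the median, and these and outlier-flagged spots were left out. No member spot was among them. Spots were averaged per probe and the sign turned to mutant over wild type. Of 39429 probes, 26761 (67.9%) were named by accession through the RefSeq table of GRCm38.p6, and 72 of 75 member probes were. The filter kept 19140 probes that were well above background with the RNA of 1 or both genotypes on every array, and the brightest probe stood for a gene. Ratios were tested against 0, two-sided, with lmFit and eBayes (2 residual and 3.04 prior degrees of freedom) and Benjamini-Hochberg adjustment over 15426 genes. The small number of arrays limits the precision. Channel signals come from Aquantile scaling after loess. The 3 arrays share 1 slide, so no batch could be tested. The fit was tested on simulated data.

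The genes and lists were chosen with earlier results of these data known. Full values are given for members that pass the test or have a mean log2 ratio of at least 1 in size and the same sign on all arrays, and for Axin2, Lef1, Tcf7, Lgr5, Sp5, Wnt3, Wnt3a, Wnt5a, Wnt11, Dkk1, Sfrp1, Sfrp5 and Rspo3. Fzd3, Nkd2, Rspo1, Sfrp2, Sfrp4 and Tnfrsf19 were given their signals after their values were seen. Alternatives changed the background correction, normalization, filter, choice of probe, source of ratios, dye term, pairing and replicates. Probe sequences were not used here.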

Additional observations from a re-analysis of the deposited data

How the results depend on the processing

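Genes are called here at an adjusted p under 0.05 in limma. Most of the 15 alternatives kept 0 higher and 0 lower Wnt pathway genes. The exceptions were the scanner software's log ratios, with 3 lower (Frzb, Fzd1 and Sp8), the fit with no replicate block, which takes the samples of an array as unpaired, with 1 lower (Sp8), the dye term, with 3 higher and 18 lower, and leaving out 1 array. Leaving out each array in turn gave 0 to 5 higher and 0 to 23 lower, with 5 and 23 without replicate 2 and 0 without replicate 1 or replicate 3. The median log2 ratio, −0.55, ran from −0.84 with median centring to −0.31 with no filter. Median centring moved the median of all genes to −0.22, and the members' median stayed below it. Sp5 changed sign with the dye term (0.054) and when an array was left out (−1.45 to 0.064). Of the other genes in the rule for full values none changed sign in the alternatives run. The remaining members were refitted with the dye term and without replicate 2. With the dye term Nkd2 (−0.17), Sfrp2 (0.087), Wnt7b (0.11) and Axin1 (0.094) changed sign, and without replicate 2 Lrp5 (−0.045) did.

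Over all genes the calls moved more, from 32 higher and 14 lower to 0 and 0 when the background model kept all spots (1684 genes at an unadjusted p under 0.05) and with the authors' deposited values (3057). They reached 2505 and 2354 with the dye term and 4006 and 3382 without replicate 2. They were 97 and 64 with no background correction, 4 and 3 with median centring, 63 and 46 with scaling between arrays, 261 and 168 with the scanner software's ratios, 1 and 1 with no filter, 3 and 1 with both channels above background, 67 and 36 with the mean over probes, 75 and 43 over single probes and 178 and 96 without the block. Signals near background limit Rspo2 and Wnt6 (well above it on no mutant array), Wnt8b (on 1) and Axin2, Frzb, Fzd4, Lef1, Wnt1 and Wnt9a (on 2). On the wild type side they limit Sfrp4, Wnt8a and Fzd9, which were well above background on 2 wild type arrays and passed through the mutant alone.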
